A study of Mus musculus with 3 samples.

Results

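The genes described here were the 7 genes of pituitary hormone chains, Pomc, Gh, Prl, Lhb, Fshb, Cga and Tshb, together with the neuropeptide gene Gal. They were taken by name from the count tables, and are 8 of the 17775 genes with a row in any of the 3 tables. All 8 had a row in every table. For each gene the level and the share of cells with at least 1 transcript were measured by library and by cell type, to set cells that make the hormone apart from low counts in endothelial cells, macrophages, microglia and T or NK cells, which are not known to make it.

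The libraries came from dissected and dissociated intermediate lobes (ILs) of mouse pituitaries at 3 months of age, 1 droplet library per genotype. By the labels all animals carried the Sox9iresCreERT2/+ allele, in which Sox9, a gene of stem cells (SCs), drives a Cre recombinase that tamoxifen switches on, and all received tamoxifen. WT carried nothing else by the labels, P27NULL was also p27-/- (Cdkn1b, which encodes P27, an inhibitor of the cell cycle, is lost in every cell), and S2CK was p27-/- with Sox2fl/+, so that 1 copy of Sox2 could be removed in SCs and their descendants. The study's methods also list a Rosa26ReYFP/+ reporter in all 3, and describe WT as a pool of males and the other libraries as pools of males and females. With 1 library per genotype no comparison between genotypes has a replicate and none was tested, so intervals below cover counting error only.

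The tables held 2020, 4153 and 3488 cells with 8332285, 15588317 and 19239147 UMIs for WT, P27NULL and S2CK, where a UMI (unique molecular identifier) tags a transcript captured in a droplet. Median UMIs per cell were 3642.5, 2740 and 4906.5, and the libraries shared between 2 and 4 cell barcodes by pairs. Levels are given as CPM, the counts of a gene scaled to a common total of UMIs. For Cdkn1b they were 41.3 (WT), 33.9 (the library labelled P27NULL) and 17.7 (S2CK). The kit reads the 3′ end and the deleted part of the gene was not given in the sources used here, so this does not check the label. Xist, transcribed in female cells, was found without any Y-linked transcript in 0 of 2020 cells of WT, in 18.4% of those of P27NULL (766 of 4153) and in 93.9% of those of S2CK (3274 of 3488), where no cell had a Y-linked transcript. Genotype and sex therefore cannot be told apart between WT and S2CK, and cells of P27NULL were also split by Xist where this touches a result. In P27NULL 2616 of 4153 cells had neither Xist nor a Y-linked transcript, so cells without Xist are not all known to be male. Within this pool sex and animal cannot be told apart either.

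The hormones fall into families by structure and by the cell that makes them. Pomc encodes proopiomelanocortin, a precursor cut into alpha-melanocyte-stimulating hormone by melanotrophs of the IL and into adrenocorticotropic hormone by corticotrophs of the anterior lobe. Gh (growth hormone) and Prl (prolactin) are related proteins made by somatotrophs and lactotrophs, cells that depend on the transcription factor Pou1f1. Lhb and Fshb encode the specific subunits of luteinizing and follicle-stimulating hormone, which pair with the shared subunit encoded by Cga in gonadotrophs. Thyrotrophs pair the same subunit with that encoded by Tshb. Galanin, encoded by Gal, is a neuropeptide known in lactotrophs and in many neurons. Of these cells only melanotrophs belong to the IL, and the others are cells of the anterior lobe.

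For the genes on which the results turn, the 250 bases before the transcription start are shown, because the data set cells that use these promoters beside cells that do not. They are reference sequence of GRCm38.p6 from RefSeq, written 5′ to 3′ on the strand of the gene, with letters in capitals where a searched motif or its reverse complement occurs.
Pomc, chr12:3954695-3954944, plus strand: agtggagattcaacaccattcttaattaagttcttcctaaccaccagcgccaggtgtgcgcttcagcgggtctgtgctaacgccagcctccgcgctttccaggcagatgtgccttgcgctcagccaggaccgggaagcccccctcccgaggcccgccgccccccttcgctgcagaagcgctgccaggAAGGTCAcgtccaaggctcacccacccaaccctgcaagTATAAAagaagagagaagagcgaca
Prl, chr13:27057320-27057569, plus strand: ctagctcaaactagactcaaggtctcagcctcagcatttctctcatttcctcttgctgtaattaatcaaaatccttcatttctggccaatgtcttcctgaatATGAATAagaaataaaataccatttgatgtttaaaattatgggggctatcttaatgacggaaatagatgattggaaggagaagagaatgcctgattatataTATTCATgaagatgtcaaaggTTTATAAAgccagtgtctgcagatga
Fshb, chr2:107059652-107059901, minus strand: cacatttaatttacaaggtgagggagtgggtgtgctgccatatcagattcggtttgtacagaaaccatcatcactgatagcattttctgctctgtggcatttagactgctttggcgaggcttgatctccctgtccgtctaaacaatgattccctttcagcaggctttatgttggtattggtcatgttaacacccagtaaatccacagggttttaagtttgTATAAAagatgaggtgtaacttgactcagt
Cga, chr4:34893529-34893778, plus strand: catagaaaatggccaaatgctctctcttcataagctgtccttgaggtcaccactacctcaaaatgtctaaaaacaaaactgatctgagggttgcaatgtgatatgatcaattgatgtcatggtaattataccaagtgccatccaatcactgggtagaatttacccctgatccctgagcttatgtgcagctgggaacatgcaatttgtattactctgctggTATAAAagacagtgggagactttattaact
The motifs were chosen after these windows had been read, and matches are descriptions only. TATAAA (the TATA box) was in 6 of the 7 windows found for the 8 genes, all but that of Gal, and in 12.4% of 32851 mouse promoters of this length, searched on both strands. AAGGTCA, the letters bound by SF1 (Nr5a1), was in the windows of Pomc and Lhb and in 4.08% of promoters. ATGNATA, the core of sites bound by Pou1f1, occurred on each strand of the Prl window and in 7.92% of promoters. On Prl, the forward and reverse matches to TATAAA overlap. TCACACC (T-box factors such as Tbx19) and TAATCC (Pitx factors) were in none of the 7 windows and in 3.33% and 6.25% of promoters.

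The 8 genes are placed apart in the genome (GRCm38.p6). Pomc lies on chromosome 12 (3954945 to 3960643), Gh on chromosome 11 (106300261 to 106303703), Prl on chromosome 13 (27057570 to 27065204), Lhb on chromosome 7 (45417608 to 45421855), Fshb on chromosome 2 (107055986 to 107059651), Cga on chromosome 4 (34893779 to 34907374), Tshb on chromosome 3 (102777398 to 102789082) and Gal on chromosome 19 (3409915 to 3414544). No other annotated gene overlaps any of them. Prl has 25 related genes in the annotation, the placental Prl family, and 0 of them had a row in a table.

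Clustering without the 8 genes gave 11 cell types by marker genes, each called X-like. In WT, P27NULL and S2CK these held 1244, 3554 and 3015 melanotroph-like cells, 183, 121 and 82 corticotroph-like cells, 45, 128 and 37 gonadotroph-like cells, and 59, 23 and 34 cells of the Pou1f1 lineage, a name that covers somatotrophs, lactotrophs and thyrotrophs. The remaining types were SC-like, endothelial-like, macrophage-like, microglia-like, T- or NK-like, connective tissue-like and pituicyte-like. All 7 melanotroph markers were detected in each library. Of the 7 markers of the Pou1f1 lineage 5 were detected in WT and 2 (Pou1f1 and Neurod4) in P27NULL and S2CK, and of the 6 corticotroph markers 3, 2 and 5 were detected, so these names rest on fewer genes in those libraries. Endothelial-, macrophage-, microglia- and T- or NK-like cells were used together as background cells, 246 in WT, 155 in P27NULL and 186 in S2CK.

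The 8 genes together took 15.0%, 12.3% and 13.2% of all UMIs of WT, P27NULL and S2CK, mostly from Pomc. Each gene except Tshb was highest in 1 endocrine type in all 3 libraries, Pomc in melanotroph-like cells, Gh, Prl and Gal in the Pou1f1 lineage, and Lhb, Fshb and Cga in gonadotroph-like cells. Tshb was highest in the Pou1f1 lineage of WT. In P27NULL the lineage held 2 Tshb UMIs (30.3 CPM, 3.67 to 110), an interval that overlapped that of gonadotroph-like cells (6.28 CPM, 1.30 to 18.4). In S2CK Tshb had 2 UMIs in the Pou1f1 lineage and 2 in gonadotroph-like cells.

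**Figure D1:**
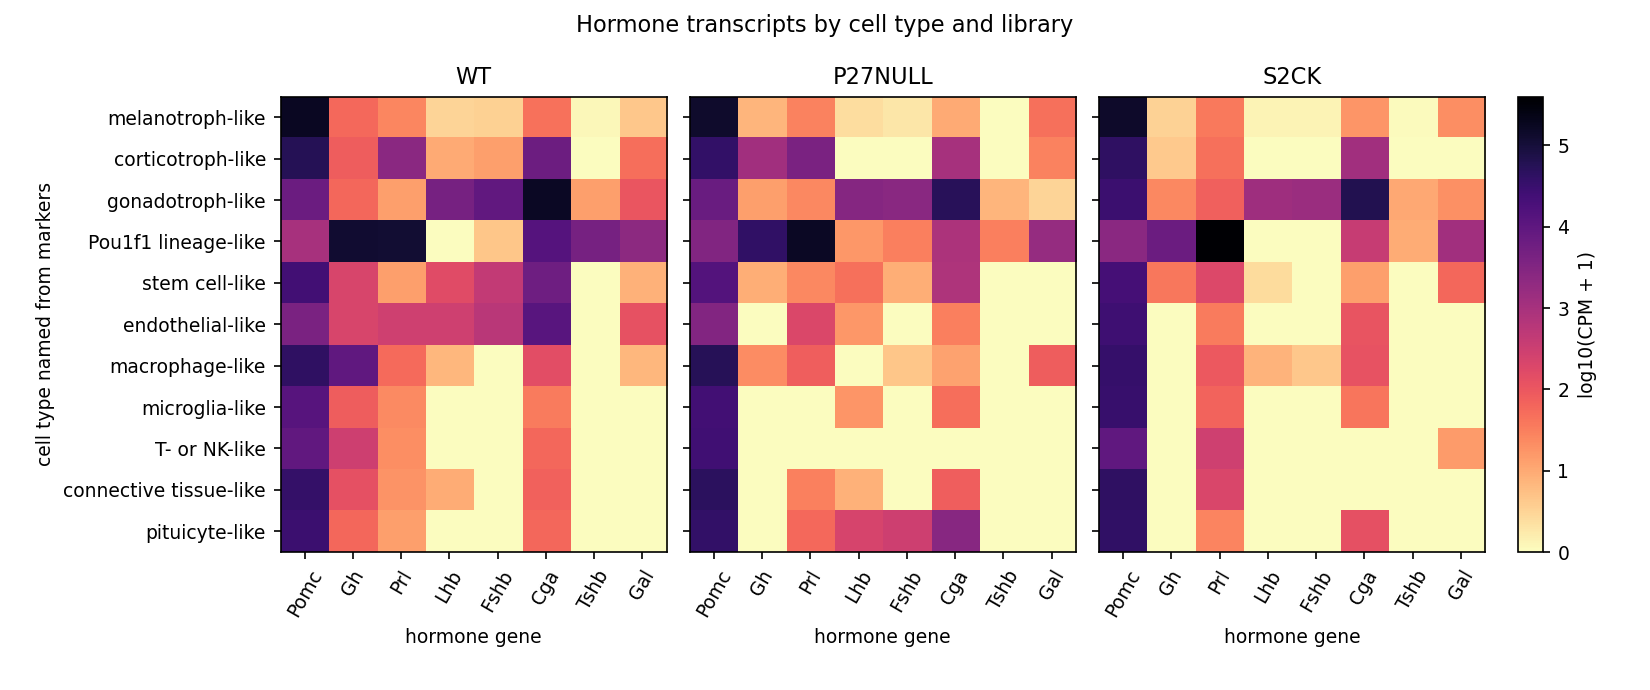
Level of the 8 hormone genes (columns) in the 11 cell types (rows) of WT, P27NULL and S2CK (panels), as log10(CPM + 1) of the summed counts. The melanotroph-like row is darkest for Pomc at 174276, 133281 and 138757 CPM. Pomc is present in every other row too, at 953 CPM or more, while Tshb is dark only in the Pou1f1 lineage of WT.

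Pomc was found in every melanotroph-like cell of all 3 libraries. WT stood highest, at 174276 CPM (173941 to 174611), with P27NULL at 133281 CPM and S2CK at 138757 CPM. The median cell stood at 14.6%, 12.9% and 12.8% of its own UMIs, and the range from the 5th to the 95th percentile of cells ran from 6.45 to 30.8% in WT, from 5.997 to 23.1% in P27NULL and from 6.94 to 22.3% in S2CK. The ranges of single cells overlapped almost fully. On the log2 scale the summed level was lower by -0.39 (-0.39 to -0.38) in P27NULL against WT and by -0.33 in S2CK against WT, and S2CK was 0.06 above P27NULL, with no wider counting intervals. None of these ratios reached 2-fold, a size passed by 2.55% of 11523 genes for P27NULL against WT, 3.8% of 11642 genes for S2CK against WT and 4.28% of 12181 genes for S2CK against P27NULL in the same cells. With each cell thinned to 1000 UMIs the first of these differences was -0.25.

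The Pomc level of P27NULL melanotroph-like cells also differed between cells with and without Xist, where sex and animal cannot be told apart. Cells with Xist and no Y-linked transcript (642 cells) stood at 162575 CPM, and cells without Xist (2901 cells) at 125800 CPM. Against P27NULL cells with Xist, S2CK was lower, at -0.23, the opposite direction to the comparison with all cells, and the cells of P27NULL without Xist were lower than WT by -0.47. The melanotroph-like cells of the libraries also fell in different clusters. Of WT cells 71.4% lay in 1 cluster led by Ccnd2 and immediate early genes such as Nr4a1, where Pomc stood at 176578 CPM. P27NULL cells lay mainly in 2 clusters led by predicted transcripts and, in the larger, Fos and Arc (34.5% and 28.7%, at 148450 and 127982 CPM) and in one led by Hspa1b once hemoglobin genes were set aside (13.7%, 116005 CPM). S2CK cells lay mainly in clusters led by Obp1b (41.5%, 129076 CPM) and Crisp1 (37.8%, 148609 CPM). Cycling melanotroph-like cells, led by Cenpf and Top2a, were 7.09% of those of P27NULL and had Pomc at 127566 CPM, beside 1.45% in WT at 169118 CPM and 0.796% in S2CK at 86266 CPM. The median cycling cell held 12.3%, 12.1% and 12.3% of its UMIs as Pomc in WT, P27NULL and S2CK, so the median cells differed far less than the sums.

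Corticotroph-like cells were the other type known to use Pomc. In WT, P27NULL and S2CK their level was 56799, 38415 and 42882 CPM, below the melanotroph-like level of the same library in each case. Their median cell held 2.19%, 1.59% and 2.05% of its UMIs as Pomc, and the 5th percentile of melanotroph-like cells lay above the 75th percentile of corticotroph-like cells (5.08%, 3.81% and 4.02%). Against WT the log2 ratio of the sums was -0.56 (-0.60 to -0.53) for P27NULL and -0.41 (-0.43 to -0.38) for S2CK, and S2CK against P27NULL gave 0.16 (0.12 to 0.20). All were under 2-fold, a size that 1.62% of 2473, 4.27% of 2484 and 6.27% of 1738 genes passed in these cells in the same comparisons. A few cells carried a large share of the sum. Cells with Pomc at 5% or more were 49 of 183, 22 of 121 and 17 of 82 corticotroph-like cells, and melanotroph marker transcripts in them numbered 13.8, 17.8 and 10.7 per 1000 Pomc UMIs, beside 31.3, 52.6 and 24.9 in melanotroph-like cells at 5% or more. Whether some are melanotrophs in the wrong cluster was not tested.

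Pomc was also counted in most cells of every other type. A Pomc UMI was in 92.7%, 96.1% and 100% of background cells (WT, P27NULL, S2CK), and after thinning each cell to 1000 UMIs, which kept 170 of 246 background cells of WT, the shares were 82.9%, 89.7% and 93.5%. The summed background level was 21061, 40880 and 29639 CPM, but the median background cell stood at only 2361, 2664 and 4095 CPM. The gap came from few cells. In WT 13 of 246 background cells had Pomc at 5% or more of their UMIs, in P27NULL 25 of 155 and in S2CK 21 of 186. These cells had a median of 5384, 4099 and 5234 UMIs, against 1268, 1799.5 and 2115 in the other background cells of the same library. Their melanotroph marker transcripts numbered 38.4, 51.1 and 21.8 per 1000 Pomc UMIs, beside 31.3, 52.6 and 24.9 in melanotroph-like cells at 5% or more and 54.2, 56.0 and 37.3 in the other background cells. Macrophage-like cells held most of them, with 10, 23 and 11 cells.

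**Figure D2:**
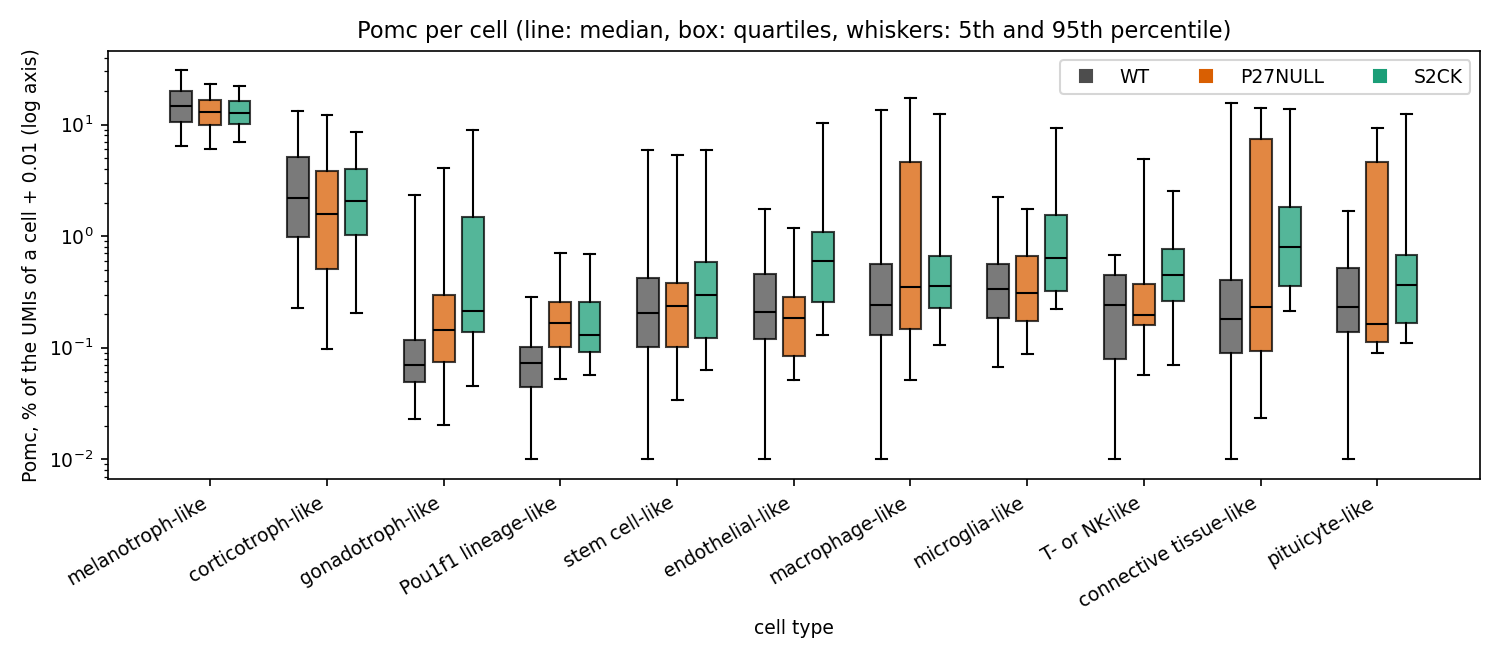
Pomc as a percent of the UMIs of each cell, with 0.01 added and on a log axis, by cell type and library. Lines mark the median, boxes the quartiles and whiskers the 5th and 95th percentiles of cells. The medians of melanotroph-like cells stand at 14.6, 12.9 and 12.8%, those of corticotroph-like cells at 2.19, 1.59 and 2.05%, and the upper whiskers of macrophage-like cells reach 13.7, 17.2 and 12.6%.

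To measure the low counts apart from such cells, background cells with Pomc under 5% and every other hormone gene under 1% of their UMIs were kept, limits set after these values were seen. They numbered 230 in WT, 129 in P27NULL and 165 in S2CK, and are called low background cells. By this choice they cannot hold a high level. In WT they held Pomc at 3739 CPM (3539 to 3948), in P27NULL at 3598 CPM (3387 to 3819) and in S2CK at 6147 CPM (5917 to 6383), or 2.82%, 2.99% and 4.86% of the level over all cells of the library. The intervals of WT and P27NULL overlapped and that of S2CK lay above both. Within S2CK the level ran from 4180 CPM in T- or NK-like to 9823 CPM in microglia-like cells, and within WT from 2002 CPM in T- or NK-like to 4683 CPM in microglia-like cells, so it differed between types beyond counting error. The order was another in P27NULL, with 3111 CPM (2694 to 3574) in endothelial-like and 5109.5 CPM (4266 to 6071) in T- or NK-like cells as the ends. There 1 T- or NK-like cell held 78 of the 129 Pomc UMIs of its type and 1 endothelial-like cell 110 of 199. The counting intervals do not cover such clumping in single cells. The median low background cell held 1267.5, 1795 and 2115 UMIs. Other hormone cells mostly lay below this level. In the Pou1f1 lineage Pomc was at 953, 3200 and 2431 CPM, and no cell there reached 5%. Its highest cells stood above the low background level, at 10140, 32594 and 22511 CPM. The one of P27NULL held 119 of the 211 Pomc UMIs of the lineage. In gonadotroph-like cells the median cell stood at 593, 1349 and 2015 CPM, while the sums of 6503, 6757 and 29408 CPM held 2 of 45, 6 of 128 and 8 of 37 cells at 5% or more. The summed Pomc of the Pou1f1 lineage and that of the median gonadotroph-like cell did not lie above the low background level. They are therefore not counted as expression here, and their source was not tested.

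Gh was concentrated in the Pou1f1 lineage, where WT stood at 124346 CPM, P27NULL at 39928 CPM and S2CK at 6566 CPM. The 59, 23 and 34 cells of this lineage held 33272, 2633 and 1545 Gh UMIs. The median cell stood in the same order, at 102320, 4003 and 0 CPM. A cell was called a producer of a gene where it held at least 5 UMIs of it and lay above the 99th percentile of the background cells of its library. For Gh there were 44 producers in WT (limit 2852 CPM), 20 in P27NULL (355 CPM) and 15 in S2CK (0 CPM), which is 2.18% (1.59 to 2.91%), 0.482% (0.294 to 0.743%) and 0.430% (0.241 to 0.708%) of all cells. They carried 98.7%, 97.2% and 97.1% of all Gh UMIs. The limits differ between libraries, and at 1 fixed limit of 1% of the UMIs of a cell WT had 38, P27NULL 11 and S2CK 3 such cells. The best producers of WT held 1907, 1794 and 1783 Gh UMIs and those of S2CK 530, 493 and 310, and in P27NULL 1 cell held 1512 of 3082 Gh UMIs (49.1%). The Gh level thus rested on few cells in P27NULL and S2CK, where 5 cells held 87.2% and 88.4% of its UMIs, against 24.8% in WT.

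Outside the Pou1f1 lineage Gh was counted at a low level in many cells of WT and in far fewer cells of the other libraries. A Gh UMI was found in 18.3% (13.5 to 23.9%) of low background cells of WT, at 192 CPM (149 to 244), in 0.775% (1 of 129 cells) of those of P27NULL and in 0 of 165 cells of S2CK, which allows a share of up to 1.82% (3 counts). Counted per 100 cells, low background cells of WT held 29.1 Gh UMIs (22.6 to 37.0) and melanotroph-like cells 26.5 (23.7 to 29.5). Corticotroph-like cells held 24.6 (17.9 to 32.9) and gonadotroph-like cells 44.4 (27.1 to 68.6). Median depths in this order were 1267.5, 4192, 2579 and 6972 UMIs. Cells with Gh at 1% or more of their UMIs were left out of these counts, 1 of them melanotroph-like. All 1244 melanotroph-like cells of WT held 340 Gh UMIs. Within the low background cells of WT, microglia-like cells held 7 Gh UMIs in 49 cells. In P27NULL melanotroph-like cells held 2.39 Gh UMIs per 100 cells and in S2CK 1.29. In melanotroph-like cells this gave Gh a log2 ratio of -3.20 (-3.56 to -2.86) in P27NULL against WT. At 57.0 CPM in WT the level lay below that of the low background cells, so it is not counted as expression here. Of the 5 hormone genes tested in melanotroph-like cells, Gh, Cga and Gal passed 2-fold in this comparison, beside 2.55% of all genes tested. Single cells of other types stood far above this. In WT 1 macrophage-like cell held 1531 of the 1603 Gh UMIs of background cells (324777 CPM in that cell), and the background level was 3772 CPM with it and 171 CPM without it. In P27NULL 2 corticotroph-like cells held 348 of the 349 Gh UMIs of that type.

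**Figure D3:**
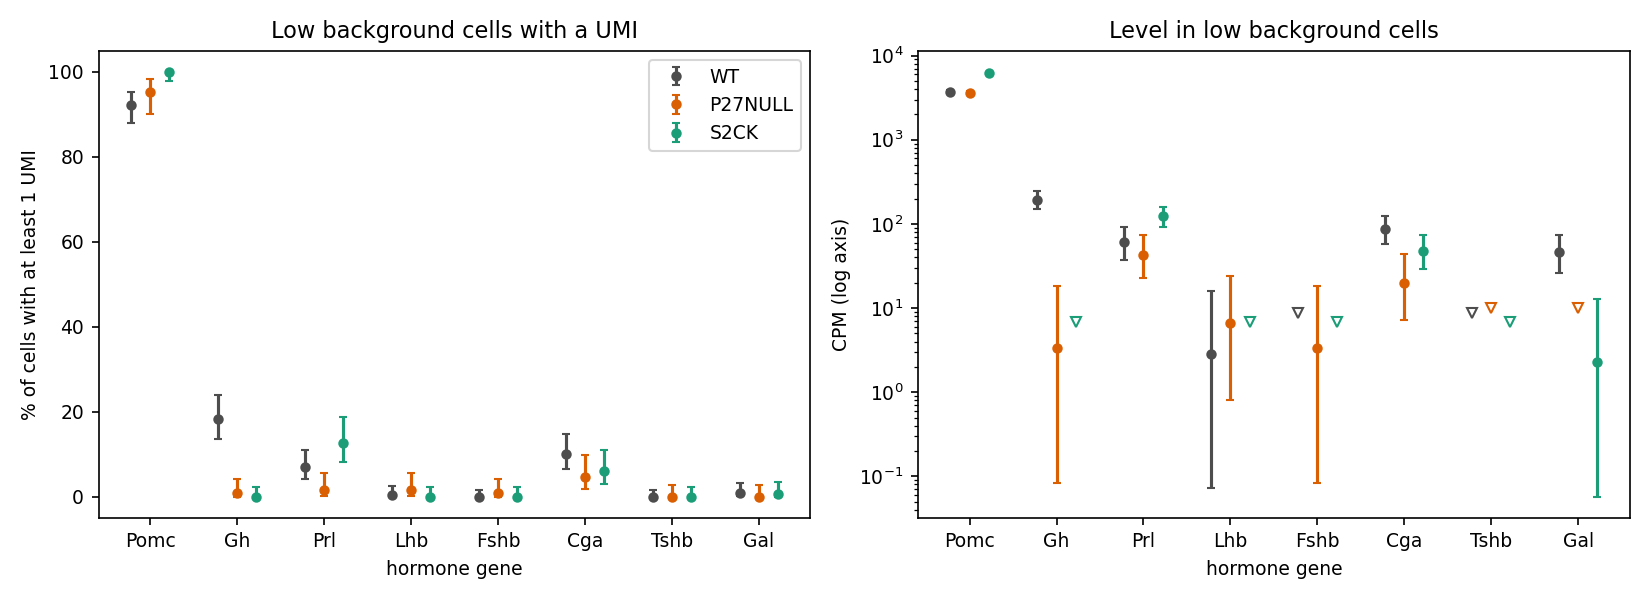
Low counts of the 8 hormone genes in low background cells of each library. Left, the percent of these cells with a UMI, with exact 95% binomial intervals; right, their level in CPM on a log axis with exact 95% Poisson intervals, where open triangles mark the level that 3 counts would give for a gene without any. Pomc stands at 92.2, 95.3 and 100% of cells, Gh at 18.3, 0.775 and 0%, and Prl at 6.96, 1.55 and 12.7%.

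The order of Prl across the libraries was the opposite. In the Pou1f1 lineage S2CK stood highest, at 374059 CPM, with P27NULL at 162822 CPM and WT at 118284 CPM. In WT, P27NULL and S2CK the median cells were at 0, 778 and 341362 CPM. Prl producers numbered 26 (limit 1123 CPM), 24 (3966 CPM) and 43 (2138 CPM), or 1.29%, 0.578% and 1.23% of all cells, and 19, 9 and 30 of them lay in the Pou1f1 lineage. In S2CK these were 88.2% of the lineage, and its strongest cell held 8586 Prl UMIs, 69.7% of its transcripts. Melanotroph-like cells held another 4, 10 and 7 Prl producers in WT, P27NULL and S2CK, those of P27NULL at a median of 4941 CPM. At 1 fixed limit of 1% of the UMIs of a cell the counts over all types were 21, 12 and 33. Log2 ratios in the lineage were 0.46 (0.43 to 0.49) for P27NULL against WT and 1.20 (1.17 to 1.23) for S2CK against P27NULL, and those of Gh were -1.64 (-1.70 to -1.58) and -2.60 (-2.70 to -2.51). CPM is a share of all transcripts, so the levels of such abundant genes are not independent. These values also differed between cells with and without Xist. Within P27NULL the 12 lineage cells with Xist stood at 204138 CPM for Prl and 13508 CPM for Gh, and the 11 without Xist at 104063 CPM for Prl and 77505 CPM for Gh, and S2CK, the library with Xist in nearly all cells, had the highest Prl and the lowest Gh. How far genotype and how far sex set these levels cannot be told apart.

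High levels of Gh and Prl were mostly found in different cells, while lower Gh beside Prl was also found. At 1% or more of the UMIs of a cell, 34 of 59 lineage cells of WT had Gh alone, 16 Prl alone, 1 both and 8 neither. In P27NULL the same counts were 8, 8, 1 and 6 of 23 cells, and in S2CK 3, 29, 0 and 2 of 34 cells. The median Gh-only cell of each library had 0 CPM of Prl, and the median Prl-only cell 0 CPM of Gh. Cells with Prl alone stood at a median of 331968, 341753 and 369592 CPM, so the level within such cells differed less than their number. This did not hold for cells with Gh alone, whose medians were 259241, 55813 and 101300 CPM over 34, 8 and 3 cells. Low Gh counts were still found in Prl cells of S2CK, where 12 of 15 Gh producers were also Prl producers, with 2 of 44 in WT and 4 of 20 in P27NULL. The Gh producer limit in S2CK was 0 CPM, so 5 UMIs sufficed there. Its 15 Gh producers stood at a median of 3799 CPM, the lowest at 823 CPM, while low background cells of S2CK held no Gh UMI. For example, 1 lineage cell of S2CK had Gh at 0.809% and Prl at 4.68% of its UMIs. In P27NULL 1 had Gh at 0.418% and Prl at 1.99%. Of the 8 WT cells with neither gene 4 had Cga at 1% or more.

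**Figure D4:**
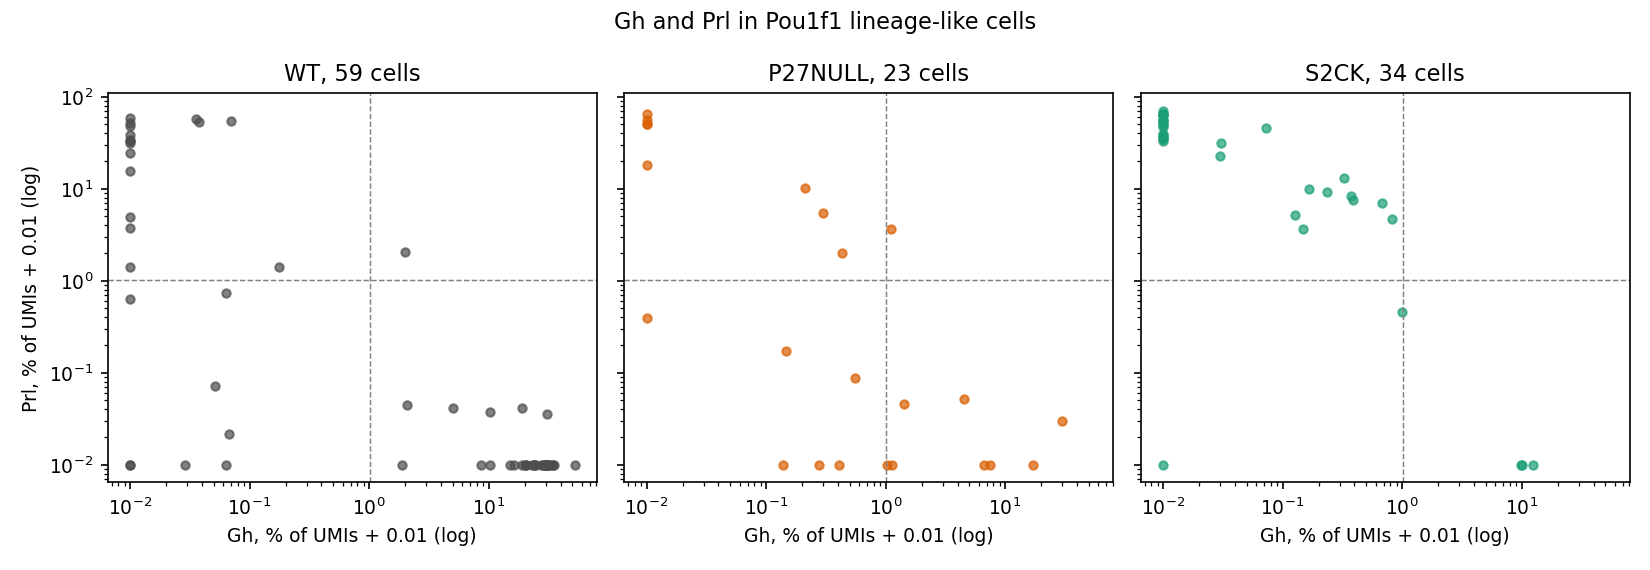
Gh against Prl in each cell of the Pou1f1 lineage of WT (59 cells), P27NULL (23 cells) and S2CK (34 cells), both as a percent of the UMIs of the cell with 0.01 added, on log axes. Dashed lines mark 1%. Many cells lie along the axes, with 1, 1 and 0 cells above both lines, and most S2CK cells (29) above the Prl line alone. Some cells lie off the axes with Gh under 1%, such as an S2CK cell with Gh at 0.809% and Prl at 4.68%.

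The background of Prl differed from that of Gh. A Prl UMI was in 6.96% (16 of 230) of low background cells of WT, 1.55% (2 of 129) of P27NULL and 12.7% (21 of 165) of S2CK, at 60.3, 43.1 and 122 CPM. In P27NULL 12 of the 13 UMIs lay in 1 endothelial-like cell. Per 100 cells with Prl under 1% of UMIs, melanotroph-like cells held 7.49, 9.96 and 15.6 Prl UMIs and low background cells 9.13, 10.1 and 32.7. This left out 2, 1 and 3 melanotroph-like cells. With them, the 1244, 3554 and 3015 melanotroph-like cells held 147, 375 and 618 Prl UMIs. In WT the order per cell depended on leaving them out. In low background cells the genes did not keep the ratio that they had over all cells of the library. In WT there were 3190 Gh UMIs per 1000 Prl UMIs in low background cells and 1065 over all cells, a log2 difference of 1.58 (0.86 to 2.36). Prl per Pomc was lower in low background cells than over all cells in WT (log2 -0.90, -1.60 to -0.28) and in S2CK (-0.87, -1.29 to -0.49), while in P27NULL the difference was 0.87 (-0.05 to 1.65). Cga per Pomc was lower in WT (-1.40, -1.97 to -0.88) and in P27NULL (-1.29, -2.74 to -0.17), and in S2CK the difference was 0.46 (-0.23 to 1.07). Low background cells were chosen by a limit of 5% for Pomc and 1% for the other genes, which bears on these ratios. Where these low counts came from was not tested.

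Gonadotroph-like cells carried Cga, Lhb and Fshb together. For Cga WT stood at 166735 CPM, P27NULL at 51200 CPM and S2CK at 61881 CPM, and it was found in 45 of 45, 127 of 128 and 37 of 37 of these cells. Lhb stood at 4593, 2807 and 1302 CPM, and Fshb at 8784, 2583 and 1484 CPM. All 3 subunit genes were highest in WT. The median cell of WT, P27NULL and S2CK held 15.7%, 4.20% and 3.84% of its UMIs as Cga, 0.469%, 0.276% and 0.0162% as Lhb and 0.896%, 0.0931% and 0% as Fshb. For P27NULL against WT the log2 ratios were -1.70 (-1.73 to -1.68) for Cga, -0.71 (-0.82 to -0.60) for Lhb and -1.77 (-1.86 to -1.67) for Fshb, so that 2 of the 4 hormone genes tested passed 2-fold beside 11.7% of 2118 genes. For S2CK against WT they were -1.43 (-1.46 to -1.40), -1.82 (-2.01 to -1.63) and -2.57 (-2.74 to -2.40), and with Pomc, which was higher in S2CK by 2.18 (2.11 to 2.25), 4 of 4 passed 2-fold beside 10.8% of 1283 genes. For S2CK against P27NULL they were 0.27 (0.24 to 0.30), -1.11 (-1.30 to -0.92) and -0.80 (-0.98 to -0.62), where Lhb and, in the other direction, Pomc at 2.12 (2.06 to 2.18) passed 2-fold beside 11.2% of 1947 genes. Melanotroph transcripts moved with these values. The melanotroph gene Pax7 stood at 3.04, 10.5 and 52.7 CPM in gonadotroph-like cells of WT, P27NULL and S2CK, and 2 of 45, 6 of 128 and 8 of 37 of these cells had Pomc at 5% or more. Their part in the Cga, Lhb and Fshb levels was not tested.

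Lhb and Fshb were counted in a smaller share of the gonadotroph-like cells of P27NULL and S2CK than of WT. Cells with both transcripts were 42 of 45 in WT, 83 of 128 in P27NULL and 14 of 37 in S2CK, and cells with neither were 0, 10 and 13. With every cell thinned to 1000 UMIs 36, 67 and 6 cells had both and 2, 23 and 25 neither, so the order was the same at equal depth although the median UMIs of these cells were 6972, 2694.5 and 4741. In S2CK 1 gonadotroph-like cell held 172 of the 317 Fshb UMIs and 105 of the 280 Lhb UMIs of the library. Without the cell with most UMIs in each library of the gene in question the ratio of S2CK against P27NULL was -1.66 for Lhb, -1.79 for Fshb and 0.07 for Cga, and that of S2CK against WT was -2.39 for Lhb and -3.61 for Fshb. Only 12 gonadotroph-like cells of P27NULL had Xist without a Y-linked transcript. They stood at 48091 CPM for Cga, 1402 CPM for Lhb and 515 CPM for Fshb, beside 51683, 2997 and 2865 CPM in the 115 cells without Xist. Against these 12 cells, which held 29 Fshb UMIs, Fshb in S2CK was higher by 1.53, the opposite of the direction over all cells, and the ratio of Lhb was -0.11. In gonadotroph-like cells too, genotype and sex cannot be told apart between WT and S2CK.

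**Figure D5:**
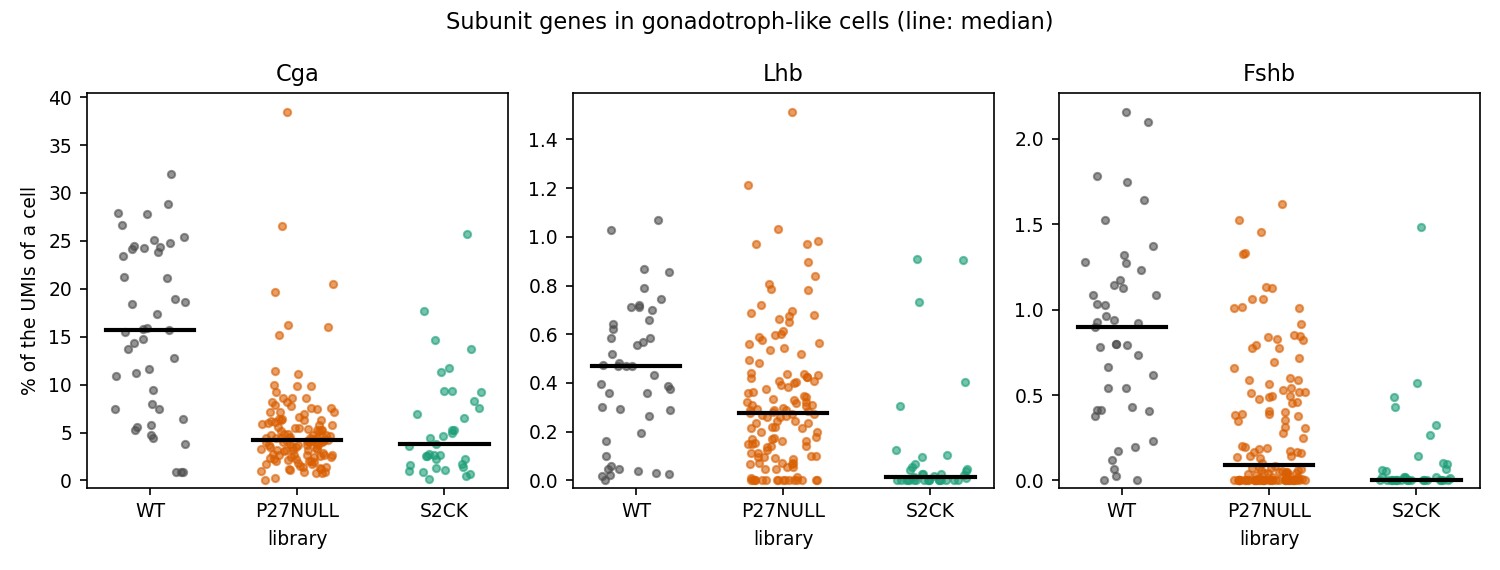
Cga, Lhb and Fshb as a percent of the UMIs of each gonadotroph-like cell of WT (45 cells), P27NULL (128 cells) and S2CK (37 cells). Each point is a cell and each line the median. The median of Cga is 15.7, 4.20 and 3.84%, and 1, 16 and 17 cells lie at 0 for Lhb and 2, 39 and 19 cells for Fshb.

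Lhb and Fshb had few counts in background and melanotroph-like cells. In low background cells Lhb had 1, 2 and 0 UMIs and Fshb 0, 1 and 0, where 0 of 165 cells of S2CK allows a share of up to 1.82% (3 counts). Melanotroph-like cells had Lhb at 2.18, 1.38 and 0.292 CPM and Fshb at 2.51, 0.874 and 0.351 CPM. Producers outside gonadotroph-like cells were few. In WT 5 SC-like cells were Lhb producers, with a median of 11341 UMIs per cell, and 5 were Fshb producers. SC-like cells of WT held 90 Lhb and 247 Fshb UMIs in all, or 156 and 429 CPM, and pituicyte-like cells of P27NULL had Fshb at 305 CPM, all 22 UMIs in 1 cell. In WT 1 endothelial-like cell held 1459 Cga, 35 Lhb and 68 Fshb UMIs. Of the 43 Lhb producers of WT in all types, 42 were also Fshb producers and 43 Cga producers. Cga was more widely counted, with 30, 6 and 21 UMIs in the low background cells, or 86.2, 19.9 and 47.6 CPM, and 44.6, 8.74 and 16.2 CPM in melanotroph-like cells. In WT the cell with most Cga UMIs of the library, 3139 or 39.5% of its transcripts, lay in the corticotroph-like cluster and had 2 Lhb, 0 Fshb and 0 Tshb UMIs.

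Tshb came from 1 cell. WT had 1252 Tshb UMIs, of which 1239 lay in 1 cell of the Pou1f1 lineage, where they were 14.3% of its transcripts beside 1878 Cga UMIs. This is the pair of subunits of thyroid-stimulating hormone. P27NULL and S2CK had 5 Tshb UMIs each and 0 producers, which allows a share of up to 0.0722% and 0.0860% of cells (3 counts). No background cell of any library had a Tshb UMI. With 1 such cell, no difference in thyrotrophs between genotypes was detectable.

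Gal was mainly a gene of the Pou1f1 lineage, where WT, P27NULL and S2CK stood at 2246, 1714 and 1181 CPM, with a UMI in 62.7%, 47.8% and 64.7% of its cells. In WT it was higher in cells with Prl at 1% or more, at 2804 CPM, than in cells with Gh alone, at 494 CPM. In P27NULL and S2CK this order was reversed, at 1135 beside 1713 CPM and 962 beside 1217 CPM, the last over 3 Gh cells. Gal was at 106 CPM (74.1 to 148) in gonadotroph-like cells of WT, an interval that overlapped that of low background cells (26.3 to 74.6). Only 1 of these cells was a Gal producer. Of them 33.3% had a UMI, against 0.781% in P27NULL and 2.70% in S2CK, at median depths of 6972, 2694.5 and 4741 UMIs. No test of that difference was possible.

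A few melanotroph-like cells of the p27-/- libraries held much Gal. Melanotroph-like cells had 20, 622 and 351 Gal UMIs in WT, P27NULL and S2CK, or 3.35, 45.3 and 20.5 CPM, a log2 ratio of 3.76 (3.12 to 4.48) for P27NULL against WT and 2.61 (1.96 to 3.34) for S2CK against WT. Cells with at least 5 UMIs numbered 1 of 1244, 8 of 3554 and 8 of 3015 and carried 40%, 88.7% and 78.1% of these UMIs. The highest P27NULL cells held 216, 145 and 91, and those of S2CK 118, 69 and 39. The difference in the sum thus lay in 8 cells of each library, and the share of melanotroph-like cells with any Gal UMI, 0.884%, 1.60% and 2.39%, differed far less. The S2CK cell with 118 Gal UMIs had 3213 of Pomc. The P27NULL cells with most Gal had little Pomc (89 and 28 UMIs beside 216 and 145 of Gal), out of 7026 and 4626 UMIs. Their Pomc share lay below the 5th percentile of P27NULL melanotroph-like cells (5.997%). Whether they are melanotrophs was not tested. In low background cells Gal had 16, 0 and 1 UMIs, 15 of the 16 in 1 endothelial-like cell of WT.

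Genes with a pattern like that of each hormone gene were sought over the 33 sums of 3 libraries and 11 cell types, as Pearson's r of log2(CPM + 10) across 12169 genes. These values are descriptions, since the points share their libraries and several of the genes named the cell types. Pomc was most like Pcsk2, the convertase that cuts proopiomelanocortin (r = 0.87), Pax7, the melanotroph selector gene (0.85), and Etv1 (0.84). Pou1f1 was among the 3 nearest genes of Gh (0.80), Prl (0.87), Gal (0.86) and Tshb (0.71), and Dlk1 among those of Gh (0.83), Prl (0.85) and Gal (0.80). Gal itself was the third nearest of both Gh (0.75) and Prl (0.84), and Dapl1 (0.70) and A330074K22Rik (0.68) followed for Tshb. Lhb and Fshb were nearest to each other (0.97), followed in both by Tgfbr3l (0.96) and Gnrhr, the receptor for gonadotropin-releasing hormone (0.88 and 0.86), and Cga was most like Fshb (0.82), March11 (0.82) and Foxl2 (0.81). Pcsk2, Pax7, Pou1f1, Tgfbr3l, Gnrhr and Foxl2 were used to name the types.

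Many known partners of the hormone genes were highest in hormone cell types, but not all. Crhr1, Drd2, Foxl2, Gnrhr, Nr5a1, Pax7, Pcsk2 and Pou1f1 were among the markers that named the types. Their place there therefore follows in part from the naming. Of 13 transcription factors 9 had their highest level in the same type in all 3 libraries. Tbx19 was highest in corticotroph-like cells (148, 101 and 152 CPM) and also present in melanotroph-like cells (80.0, 73.1 and 62.8 CPM), Neurod1 was highest in corticotroph-like cells (65.0, 90.4 and 38.8 CPM), Pax7 in melanotroph-like cells (182, 229 and 178 CPM), and Nr5a1, Gata2, Foxl2, Pitx1 and Isl1 in gonadotroph-like cells. Pou1f1 reached 325, 243 and 302 CPM in its lineage. Of 8 receptors 4 did so, Crhr1 (corticotroph-like), Gnrhr and Esr1 (gonadotroph-like) and Drd2 (melanotroph-like), while Ghsr and Trhr had no row. Of 9 processing enzymes and granule proteins 5 did so, among them Pcsk2 in melanotroph-like cells (4302, 5707 and 2451 CPM) and Chga in gonadotroph-like cells (5183, 17566 and 2945 CPM). In gonadotroph-like cells of P27NULL against WT, where Cga and Fshb were lower, Nr5a1, Gata2, Foxl2, Pitx1 and Chga were higher by more than 2-fold and Pcsk1 lower, 6 of the 17 partners tested beside 11.7% of all genes. Of the 248 genes past 2-fold in that comparison 220 were higher and 28 lower, so most genes moved in the direction of these partners. In S2CK against WT Foxl2 was higher and Pcsk1, Pam and Scg2 lower, 4 of 15 beside 10.8% of all genes. In melanotroph-like cells 1 of 18 partners (Crhr1, lower) passed 2-fold for P27NULL against WT, 1 (Pam, lower) for S2CK against WT and 3 (Crhr1 higher, Pcsk2 and Pam lower) for S2CK against P27NULL, beside 2.55%, 3.8% and 4.28% of all genes in these comparisons.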

How the data were processed

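Droplet single-cell libraries of ILs, 1 per genotype, were made by the authors with the Chromium Single Cell 3′ kit (v3), sequenced on a HiSeq4000 and counted with Cell Ranger 3.0.2 on GRCm38. Per the labels' processing notes, STAR 2.5.1b, R 3.6.0 and Seurat 3 were also used. The authors deposited raw UMI counts, genes by barcodes, with no normalization, after removing cells with fewer than 50 genes or more than 10% mitochondrial content. The tables hold fewer barcodes than the cells that the study states for each library. The labels give tamoxifen at 4 weeks of age, and the study's text on these libraries gives another time, a difference that could not be settled here.

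Cells of the 3 libraries were clustered together (scanpy 1.11.5, igraph 0.11.9, Python 3.11.15). The 8 genes, the sex-linked genes, Cdkn1b and the hormone genes Avp and Oxt were left out. Counts were scaled to 10000 per cell, with 2000 variable genes, 20 principal components, 20 neighbours and Leiden resolution 1. A cluster was named from marker genes where at least 3 were detected, their relative level was at least 0.3 and led by 0.1, and no other type had more markers among the 10 genes with the highest fold. The lists for B cells, neutrophils and erythroid cells were dropped, and hemoglobin genes left out of that ranking, after the data were seen. No cluster was named mural. No doublet was removed, because Scrublet called only 11 of 9661 cells and so had not worked. An alternative dropped the 268 cells it scored highest. WT had 162 cells under 1000 UMIs and the other libraries 0.

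Counts were summed per library and type and given as CPM with exact Poisson intervals, shares with exact binomial (Clopper-Pearson) intervals and log2 ratios of sums with exact conditional intervals, all at 95% and for counting error only. A count of 0 was given the limit of 3 counts. Genes with at least 50 UMIs in both sums together entered the count of those past 2-fold. Cells are not replicates, so no test was run. The steps were tested on simulated counts with known changes. Genes named were the 8 members, the 3 genes most like each, and a list of transcription factors, receptors and processing genes. The members and lists were chosen with earlier results of these data known. Alternatives were other clustering, filters, thinning, doublet removal, scaling (TMM, edgeR 4.0.16 in R 4.3.3), background types, producer limits and splits by sex.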

Additional observations from a re-analysis of the deposited data

How the results depend on the processing

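The Pomc ratios of melanotroph-like cells, the Cga, Lhb and Fshb ratios of gonadotroph-like cells, the Pomc and Gh levels of background cells and the numbers of Gh and Prl producers were recomputed with 1 choice changed at a time, and the other values were not. Settings with a hemoglobin cluster left unnamed, without a top cell, with low background cells alone and with the 1% limit were chosen after seeing the data, as were all those for Lhb, Fshb and Cga. No paired analysis was possible because each genotype has 1 library, and there was no replicate to leave out.

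The Pomc log2 ratio of melanotroph-like cells in P27NULL against WT kept its sign in 11 of 11 settings. It was -0.39 at resolution 2, -0.38 with each library clustered alone, -0.40 with at least 500 genes and 1000 UMIs, -0.39 without doublet-scored cells, -0.46 with totals without Pomc, -0.33 with the hemoglobin cluster unnamed, -0.25 thinned, -0.25 as the mean of per-cell shares, -0.47 with TMM factors and -0.47 for cells without Xist. For S2CK against WT (10 of 10) the first 3 of these and the totals without Pomc gave -0.33, -0.32, -0.34 and -0.39, thinning -0.24, per-cell shares -0.25 and TMM -0.28. For S2CK against P27NULL the ratio was 0.055 with the filter, 0.067 with totals without Pomc, 0.0036 with the hemoglobin cluster unnamed, 0.0040 thinned, 0.0022 by per-cell shares, 0.19 with TMM and -0.23, reversed, against cells with Xist. In gonadotroph-like cells Fshb in S2CK against P27NULL reversed to 1.53 against cells with Xist.

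The summed Pomc level of background cells also moved. In WT, P27NULL and S2CK it was 7812, 24097 and 18902 CPM at resolution 2, 8939, 53431 and 32578 CPM with each library alone, 18123, 39658 and 26120.0 CPM without doublet-scored cells, 21514, 42623 and 30545 CPM with totals without Pomc, 12147, 25613 and 18280 CPM thinned, 10131, 25456 and 18615 CPM by per-cell shares, 3957, 3111 and 26404 CPM in endothelial-like cells alone, 31598, 49491 and 34700.2 CPM in macrophage-like cells with microglia, 8926, 25297 and 9300.3 CPM in T- or NK-like cells, 17991, 39772 and 26685 CPM without the highest cell, and 3739, 3598 and 6147 CPM in low background cells. The filter gave 22965 and 40261 CPM in WT and P27NULL. Gh in WT was 4439, 5896, 4374, 4140.3, 2094 and 1528 CPM at resolution 2, with libraries alone, filtered, without doublet-scored cells, thinned and by per-cell shares, and 214, 6148, 302, 171 and 192 CPM for the same types and cells as above. Gh in P27NULL was 4.75 CPM without doublet-scored cells, 0 in endothelial-like and in T- or NK-like cells and 3.31 CPM in low background cells, and S2CK stayed at 0 in all 12 settings.

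With the highest background cell as the limit WT had 4 Gh and 16 Prl producers, because 1 macrophage-like cell sets it for Gh. P27NULL had 13 Gh producers at 10 UMIs or more and 11 at 1%, with 7 in cells with Xist and 13 in cells without, and S2CK had 3 at 1%. Prl producers of P27NULL were 8 in cells with Xist and 12 at 1%. The other 79 main values and 42 of 78 gene values moved by less than counting error or 1.5 times. The share of cells with few UMIs of a gene is limited by depth, above all in the shallow background cells.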
